A study of Mus musculus with 2 samples.

Results

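C16 was the cluster of cells that carried the value 16 in the deposited clustering of splenic CD11c+MHCII+ cells at resolution 0.5. It held 126 of 24343 cells, 58 of 12224 in the WT library and 68 of 12119 in the Batf3-/- library. Its share was 0.474% of WT cells (95% exact Clopper-Pearson interval, 0.360 to 0.613) and 0.561% of Batf3-/- cells (0.436 to 0.711). The intervals overlapped and, with 1 library per genotype, the difference was not tested. Its direction turned, to 0.613% in WT and 0.564% in Batf3-/-, when C4, C12, C17 and C18, nearly absent in Batf3-/-, were left out of the cells. Of the 126 cells, 46.0% (37.1 to 55.1) came from the WT library. The cluster was chosen for its Cd7 and Tcf7 transcripts and for the several lineages named in it.

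The study joined RNA and antibody tags in the same single cells (CITE-seq). The WT group was C57BL/6 mice and the Batf3-/- group was mice without Batf3, a transcription factor that cDC1 need. In each group the spleens of 6 female mice of 8 weeks were pooled into 1 library, so the variation between animals could not be measured. All cells were depleted of T and B cells with beads and then sorted as live MHCII+CD11c+ cells, so a T or B cell should be rare by design, and no treatment was given. The files gave counts of unique molecular identifiers (UMIs), in which each captured RNA molecule is counted once.

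Conventional dendritic cells (cDC) take up, carry and present antigen to T cells. They are divided into cDC1, which need Irf8 and Batf3, and cDC2, which are marked by Sirpa. Cd7 encodes a surface receptor of the immunoglobulin family that is best known on T cells, NK cells and innate lymphoid cells (ILC). Tcf7 encodes TCF1, a transcription factor of the Wnt pathway with established roles in T cells and ILC. Aire encodes a regulator best known from the thymus, and antigen-presenting cells that hold Aire and MHC class II have also been described in other lymphoid tissue.

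C16 cells had many UMIs each. They held a median of 12821 UMIs and 3334 genes in WT and of 13150 UMIs and 3444 genes in Batf3-/-, with a range of 4044 to 28820 UMIs. The medians of the other clusters ran from 1478.5 UMIs in C9 to 19017 in C6. Mitochondrial genes took a median of 5.01% of WT and 4.48% of Batf3-/- UMIs in C16. A doublet caller (Scrublet) marked 2 of the 58 WT cells and 0 of the 68 Batf3-/- cells of C16, while its median score was 0.138 and 0.146 in C16 and 0.0715 and 0.0901 over all cells of the 2 libraries. What part high scores had in the values below was not tested beyond leaving out the marked cells. One Batf3-/- cell of C16 shared its barcode with a WT cell outside the cluster, among 56 barcodes that the libraries shared. Batf3 was at 230 UMIs in 53 of 58 WT cells of C16 and at 0 UMIs in the 68 Batf3-/- cells, as the labels ask.

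Promoter sequences of some genes described below are shown first, because Dbp, Nr1d1 and Arntl, which belong to the circadian clock, had their highest levels in C16, and the protein that Arntl encodes binds the E-box CACGTG. They are taken from RefSeq (GRCm38.p6), run 5′ to 3′ on the strand of the gene from 250 bases before to 50 bases after its start, and print CACGTG in capitals. Pigr and Epcam held the motif, and Col17a1 is shown as a leading gene without it. Dbp, also an own gene, did not hold it in this window.
Pigr, chr1:130826434-130826733, plus strand: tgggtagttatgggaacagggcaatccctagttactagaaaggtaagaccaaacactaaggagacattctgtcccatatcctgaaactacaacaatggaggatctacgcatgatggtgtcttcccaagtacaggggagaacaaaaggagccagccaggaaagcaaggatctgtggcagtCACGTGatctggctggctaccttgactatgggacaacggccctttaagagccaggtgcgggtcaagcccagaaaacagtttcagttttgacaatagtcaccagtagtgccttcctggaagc
Epcam, chr17:87635729-87636028, plus strand: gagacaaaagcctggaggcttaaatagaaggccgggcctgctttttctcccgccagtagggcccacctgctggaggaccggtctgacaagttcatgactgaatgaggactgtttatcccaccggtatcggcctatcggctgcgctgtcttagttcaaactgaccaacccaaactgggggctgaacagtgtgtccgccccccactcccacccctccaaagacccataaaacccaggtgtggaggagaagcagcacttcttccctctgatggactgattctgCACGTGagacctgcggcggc
Col17a1, chr19:47691993-47692292, minus strand: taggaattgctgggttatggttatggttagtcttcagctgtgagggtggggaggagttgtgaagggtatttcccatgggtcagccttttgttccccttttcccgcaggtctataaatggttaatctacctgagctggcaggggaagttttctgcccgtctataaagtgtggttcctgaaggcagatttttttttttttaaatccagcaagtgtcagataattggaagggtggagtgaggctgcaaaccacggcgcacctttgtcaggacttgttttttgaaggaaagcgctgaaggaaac

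Cd7, which the cluster was chosen for, is given as a description. It was found in 125 of the 126 cells and stood at 1266 CPM (UMIs of a gene per 1000000 UMIs of the cluster; 95% exact Poisson interval, 1213 to 1322). The level was 1089 CPM in WT and 1407 CPM in Batf3-/-. The next clusters were C13 with 642 CPM (612 to 673), C3 with 500 CPM (490 to 509), C10 with 438 CPM and C0 with 383 CPM, and the lowest was C18 with 7.73 CPM. In C13 the level was 605 CPM in WT and 692 CPM in Batf3-/-. Cd7 UMIs were found in 99.2% of C16 cells, 57.4% of C13 cells and 91.5% of C3 cells.

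Tcf7 was not particular to C16. It was at 133 CPM (116 to 151) in 60 cells of C16, below the 204 CPM (187 to 221) of C13 and level with the 137 CPM (132 to 143) of C1, whose interval lay inside that of C16. It came to 98 UMIs in 28 WT cells and 124 UMIs in 32 Batf3-/- cells, which gave 133 CPM in each library. In the other 17 clusters the highest Tcf7 level was 52.1 CPM, in C9.

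**Figure D1:**
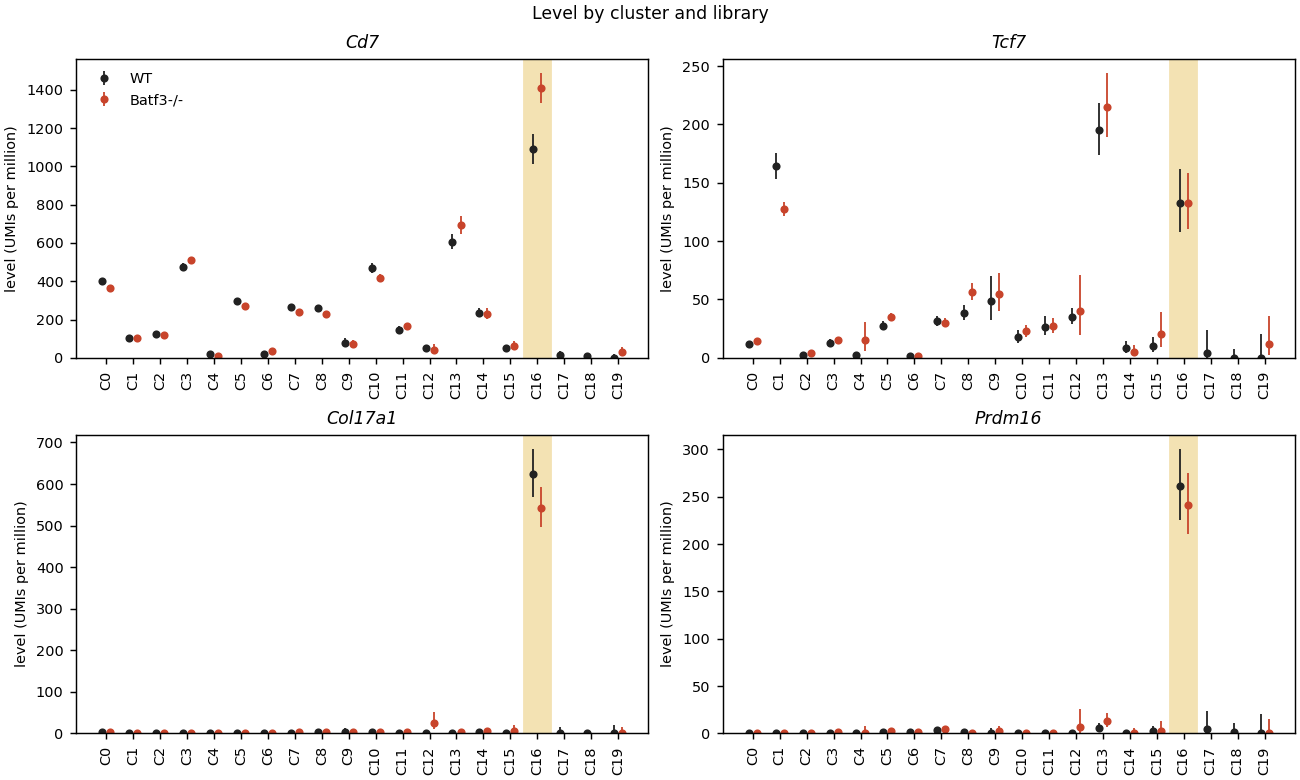
Levels of Cd7, Tcf7, Col17a1 and Prdm16 in CPM (vertical axis, linear) by deposited cluster (horizontal axis), with 1 point for each library and bars for the 95% exact Poisson interval. Libraries with fewer than 20 cells in a cluster are not drawn, and C16 is shaded. Cd7 was highest in C16 at 1089 CPM in WT and 1407 CPM in Batf3-/-, Tcf7 was higher in C13, and Col17a1 and Prdm16 were low outside C16, the highest point of Col17a1 being 25.3 CPM in Batf3-/- cells of C12, from 1 cell.

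Some genes were at least 2 times higher in C16 than in any other cluster. A gene was called its own when it reached 100 CPM with 50 UMIs in at least 25 cells of C16 and at least 2 times the level of the highest of the other 19 clusters. Of 1402 genes that passed the minimums, 56 met this (3.99%). Since the clusters were built from the same RNA, these counts describe the cluster and test nothing. For 19 of the 56 the ratio was 10 or more and for 25 it was 5 or more. Taken in 1 library at a time, 54 of the 56 kept a ratio of 2 in WT and 50 did so in Batf3-/-, where C17 held 1 cell and C18 held 2 cells. They lay on 18 chromosomes in the GENCODE annotation of GRCm38, and 55 were protein-coding.

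Among the own genes were regulators of transcription. Prdm16 (chr4:154316125-154636873, minus strand), which encodes a zinc finger regulator known from brown fat, had 418 UMIs in 111 of 126 cells, or 250 CPM (227 to 275), with 261 CPM in WT and 241 CPM in Batf3-/-. Its next highest level was 8.89 CPM in C13, so the ratio was 28.1. Among the 24217 cells outside C16, 263 held a UMI of Prdm16. Foxs1, of the forkhead family, stood at 100.5 CPM in 79 cells, and Dbp, a circadian factor of the PAR bZIP family, at 130 CPM in 73 cells and 8.71 times its level in C0.

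Surface and matrix proteins formed another group. Col17a1, a transmembrane collagen of hemidesmosomes in epithelia, was the most widespread of the leading genes. It had 968 UMIs in 119 cells, which is 579 CPM (543 to 617), or 625 CPM in WT and 543 CPM in Batf3-/-, against at most 4.23 CPM in any other cluster (ratio 137). Pigr, the receptor that carries polymeric immunoglobulin across epithelia, was at 102 CPM in 49 cells. C13, the next cluster, held 0.37 CPM of it from 1 UMI, and with C13 set at the floor of 3 UMIs the ratio was 91.6. Fcer2a, the low-affinity IgE receptor CD23, was at 288 CPM in 54 cells, with up to 34 UMIs in 1 cell, and Fcmr, the receptor for the Fc part of IgM, was at 112 CPM in 69 cells. Epcam, the epithelial adhesion molecule, was at 135 CPM in 79 cells and Wls, which carries Wnt proteins to the surface, at 141 CPM in 94 cells. Fcer2a and Fcmr are genes known from B cells, but Cd79a, Pax5 and Ebf1 were at 0 UMIs in C16.

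Metabolic and transport genes followed. Fabp1, the fatty acid-binding protein of liver and gut, had 650 UMIs in 67 cells, or 389 CPM (360 to 420), against 2.68 CPM in C1. Tdh, a threonine dehydrogenase, was at 248 CPM in 67 cells, Slc28a3, a nucleoside carrier, at 118 CPM in 58 cells, and Cpe, a carboxypeptidase of secretory granules, at 177 CPM in 67 cells. Further leading genes were Gm15848, Prr29, Nccrp1, Rasl11a, 1110008L16Rik, Sept4, Pbld1, Rab38 and Tmem154, with 100.5 to 285 CPM each and ratios of 6.56 to 213 to the next cluster. Few own genes stood in the lists of blood lineages used below, among them Fcer2a, Fcmr, Ltb and Ccr6.

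Some own genes were neighbours. Gm15848, an antisense gene that overlaps Fcamr, lies on chromosome 1 with 2599 bases to Pigr, and Fcmr lies a further 13419 bases beyond Pigr. Of the 56 own genes, 29 overlapped another gene model, 10 of them on the same strand, where reads may have been given to either gene.

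**Figure D2:**
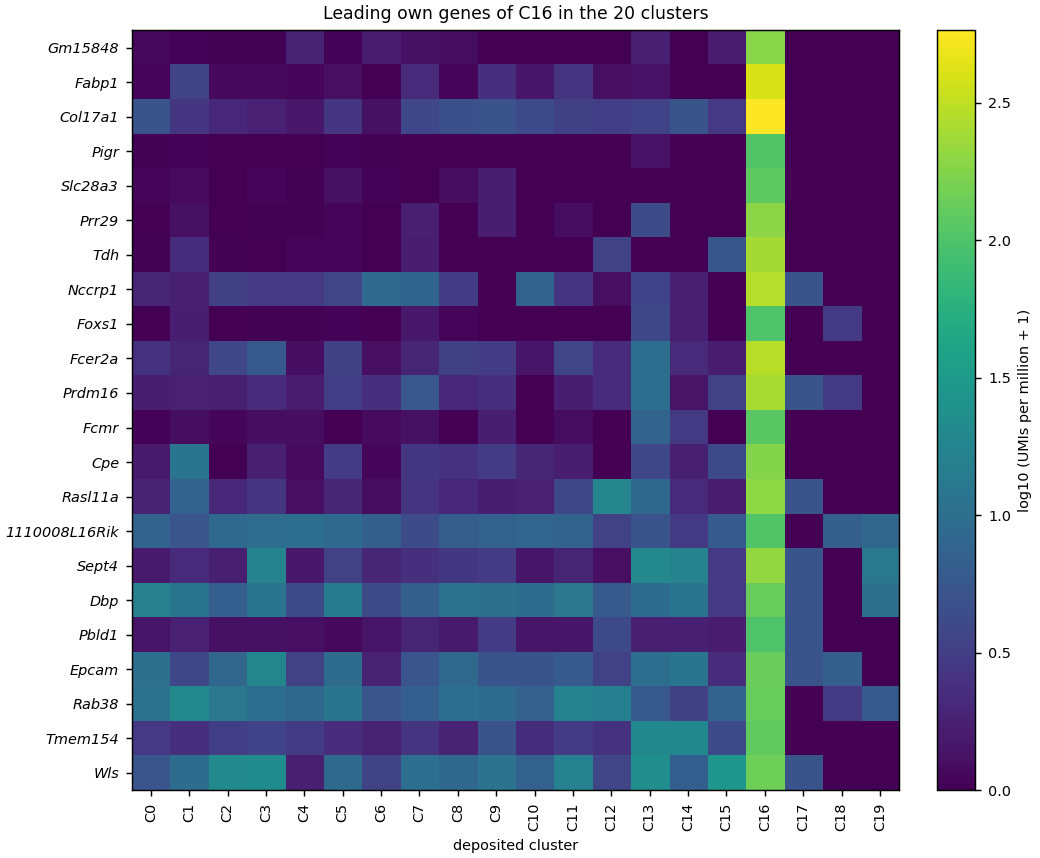
Levels of leading own genes of C16 (rows, ordered by the ratio to the highest other cluster) in the 20 deposited clusters (columns), both libraries pooled, as log10 of CPM plus 1. The column of C16 is bright in each row, from 100.5 CPM to the 579 CPM of Col17a1. Outside C16 these genes stayed at 27.2 CPM or less.

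Widely used genes with a smaller ratio were also among the 56. Ltb, the lymphotoxin beta chain that shapes lymphoid tissue, was at 2406 CPM (2332 to 2481) in each of the 126 cells, 2.86 times its level in C13. Cd82, a tetraspanin, was at 806 CPM, Mif, a cytokine that acts on macrophages, at 880 CPM, Cfp, the complement factor properdin, at 989 CPM, and Lamp1, a lysosomal membrane protein, at 1185 CPM. Ccr6, the receptor of the chemokine CCL20, was at 250 CPM in 102 cells and 3.04 times its level in C9. The genes just outside the rule were Zfp467, with a ratio of 1.99, Ahcyl2 with 1.98 and Cd7 itself with 1.97. The genes just inside were Tpd52 with 2.01, and Sept11 and Eef2k with 2.20.

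The motif shown above was counted over the promoters. Of the 56 own genes, 41 had an entry in the RefSeq table. The E-box CACGTG was in 8 of 41 (19.5%), Pigr and Epcam among them, and in 1368 of 12722 genes of the files with an entry (10.8%), a difference that was not tested, in a motif picked after the values of C16 were known. CTTTGAA on either strand, a core of TCF and LEF sites, was in 2 of 41 (4.88%), namely Ccr6 and Txnrd1, and in 4.77% of all. These letters describe short windows and say nothing of binding.

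The word mixed-lineage was read against lists of markers. C16 was read against all other cells, over 8213 genes that reached 10 CPM in either, of which 10.9% were at least 2-fold higher in C16 and 8.8% at least 2-fold lower. The median log2 ratio was 0.07 over all these genes. MHC class II genes were present throughout. H2-Aa, Cd74, H2-Ab1 and H2-Eb1 were in each of the 126 cells, H2-Aa at 6551 CPM and Cd74 at 15371 CPM, and their list was at the rank of 13 among 20 clusters with 2 of 10 genes at least 2-fold lower. Of 11 core cDC genes, 1 was higher and 4 were lower, and Itgax was at 246 CPM in 93 cells, Zbtb46 at 41.3 CPM in 51 cells and Flt3 at 50.9 CPM in 47 cells. SingleR labels deposited by the authors called all 126 cells dendritic cells, 102 of them by the label DC.8-4-11B-.

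cDC1 genes were mostly lower in C16 than in all other cells, which include the clusters of cDC1. Of 12 genes with enough UMIs, 7 were at least 2-fold lower and 1 was higher, with a median log2 ratio of -1.75. By cluster, the summed level of the list was 2736 CPM in C16, rank 7 of 20. That level was 8599 CPM in C4, 1403 CPM in C1 and 821 CPM in C0. Id2 was the most abundant gene of the list in C16. Xcr1 and Clec9a, which define cDC1, had 10 UMIs in 4 cells and 17 UMIs in 11 cells. Irf8, which cDC1 and pDC need, was at 479 CPM in 119 cells, rank 7 of the 20 clusters. This was level with C12 at 473 CPM, below C4 at 1963 CPM and C14 at 2974 CPM, and above C0 at 18.4 CPM and C3 at 66.0 CPM. Id2, an inhibitor of E proteins that cDC1 and ILC use, was the 1 gene that was higher, at 1680.5 CPM in each of the 126 cells, where only C12 was higher at 2147 CPM.

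cDC2 genes were split. Sirpa was at 40.7 CPM in 47 cells, rank 15 of the 20 clusters, and Irf4 at 5.98 CPM in 9 cells. Of 8 genes shared by cDC2, 5 were at least 2-fold lower, and the summed level of the list was the highest of all clusters because of Ltb. Among 10 genes of the cDC2a list, 4 were at least 2-fold higher, namely Ccr6, Esam, Runx3 and Clec4a4, and each of these had its highest level in C16. Runx3 was at 459 CPM and Esam at 116 CPM, while Ppp1r14a, also of that list, was at 14.4 CPM in 13 cells against 333 CPM in C0. Among 9 genes of the cDC2b list, the lectin Mgl2 was at its highest in C16, at 135 CPM, while 4 were at least 2-fold lower, among them Ccr2, Csf1r and Cd209a. Clec10a, another lectin, was at 258 CPM (234 to 283) in C16 and at 233 CPM (215 to 252) in C14, so these intervals overlapped, and a UMI of it was in 47.6% of C16 and 76.9% of C14 cells. Tmem176a and Tmem176b were at 328 and 330 CPM, against 1981 and 1823 CPM in C1.

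Lists of lymphoid cells were read next. Of the ILC2 and ILC3 list, the 5 genes with enough UMIs were each at least 2-fold higher than in all other cells. Gata3 was at 44.9 CPM in 47 cells, Klrg1 at 37.7 CPM in 28 cells and Il7r at 85.0 CPM in 45 cells, but Il7r was higher in C13, at 292 CPM. Of the T cell list, Cd5 was at 31.1 CPM in 35 cells while Cd3e and Cd3g were at 0 UMIs and Cd3d at 1 UMI. A count of 0 UMIs among the 1671564 UMIs of C16 was set at a floor of 3 UMIs in ratios, and the exact interval of such a gene reached 2.21 CPM, counting error only. Of the NK cell list, 4 of 4 genes with enough UMIs were at least 2-fold lower and Ncr1, Gzma and Nkg7 were at 0 UMIs. Of 6 B cell genes, 4 were higher, with Spib at 127 CPM and Blk at 40.7 CPM beside Fcer2a and Fcmr. The summed level of the B cell list was highest in C16, at 645.5 CPM against 290 CPM in C14, and stayed highest in each setting tried. Of the 12 counted genes of that list, 4 were at 0 UMIs in C16. Kit, the stem cell factor receptor of progenitors and many ILC, was at its highest in C16, at 233 CPM in 111 cells, while Cd34, Mpo and Elane were at 0 UMIs.

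Myeloid and pDC lists were low or split. Siglech had 33 UMIs in 5 cells and Ly6d had 17 UMIs in 2 cells, while Bst2 was at 610 CPM, Spib at 127 CPM and Runx2 at 91.5 CPM, each second to C14. Of 11 monocyte genes, 6 were at least 2-fold lower than in all other cells, which include the monocytes of C15, and none was higher. The summed level of the monocyte list was 3184 CPM in C16, rank 11 of 20. Of 7 macrophage genes 4 were lower, with C1qa at 1 UMI, and 3 were higher, among them Hmox1, which sat in 9 cells, and of 4 neutrophil genes 4 were lower. All 12 cell cycle genes were at least 2-fold lower than in all other cells, with Mki67 in 9 cells and Top2a in 18 cells. Those other cells include clusters of cycling cells. By cluster, the summed level of the list was 166 CPM in C16, rank 11 of 20, between 118 CPM in C0 and 199 CPM in C3. The authors' phase calls put 15 of 126 cells in S or G2M.

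The wider Tcf7 and Wnt list held 16 genes with enough UMIs, of which 5 were higher and 3 lower. Tle2, a corepressor that binds TCF factors, was at 25.7 CPM and was highest in C16, Tcf7l1 was at 20.3 CPM, and Lef1 was at 0 UMIs while it reached 108 CPM in C13. Of the receptors and ligands kept with Cd7, Cd2 and Cd28 were at 0 UMIs in C16. Of 14 mature cDC genes 3 were higher, namely Il4i1, Socs2 and Spint2, and 4 were lower, among them Ccl5. Of 13 immediate early and stress genes none lay outside 2-fold, and of 9 interferon genes 4 were lower and Mx1 was higher. The 6 Notch pathway genes with enough UMIs all lay within 2-fold, Dtx1, a regulator of Notch, being the most abundant at 142 CPM.

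An epithelial and a circadian list were drawn up with these values in view and are no independent evidence. Of 8 epithelial genes 8 were higher. Beside Fabp1, Pigr and Epcam these were Cldn7, a tight junction protein, at 81.4 CPM in 55 cells, Ush1c at 86.1 CPM in 38 cells and Krt8 at 25.7 CPM in 16 cells, while Elf3 and Vil1 were at 0 UMIs. Of 11 circadian genes 8 were higher. Nr1d1, a repressor of the clock, was at 71.2 CPM in 64 cells and Arntl, its activator, at 33.5 CPM in 47 cells, while Per2 and Hlf were at 0 UMIs.

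The overlap with each other cluster was then measured by 30 signature genes per cluster, chosen without C16. C16 reached 0.5 times that cluster's level or more for 39 of 570 such genes, 6.84%. Read over all genes at 50 CPM in the other cluster, the same held for 59.2% to 90.8% of genes. Signature genes were chosen for a high level over the other clusters, which lowers this share for any cluster left out of the choice, and the same count was not made for another cluster. The largest counts were 11 of 30 for C0, 7 for C1, 6 for C2, 5 for C3 and 4 for C9, against 89.3%, 87.4%, 89.2%, 90.8% and 59.2% of all genes in these clusters. By the median level of the 30 genes, as a percent of that in their cluster, C1 came first with 28.1% and C0 had 21.5%, and under the other settings tried C0, C1 or C18 came first. With C14 the count was 2 (84% of all genes), and with C4, C5, C8 and C11 it was 1 (89%, 89.2%, 84.7% and 88.4%). It was 0 with C6 (85.6%), C7 (80.4%), C10 (84.8%), C12 (77.8%), C13 (86.5%), C15 (81.1%), C17 (59.5%), C18 (88.5%) and C19 (69.3%).

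With C0, the cluster that Ppp1r14a, Dtx1 and Tgm2 led, C16 shared Cd7, Ccr6, Dtx1, Pglyrp1, Bex6 and 6 more, and its level of AC140186.1 was 291 CPM against 161 CPM. With C1, whose leading genes were Cd63, H2-M2 and Socs2, it shared Il4i1, an amino acid oxidase of mature dendritic cells, at 698 against 1254 CPM, and 2610528A11Rik at 657 against 261 CPM. With C2 it shared Clec10a, at 258 against 78.8 CPM, Mgl2, at 135 against 70.2 CPM, and Lst1, at 380.5 against 475 CPM. With C3, led by Cd209d and Siglech, it shared Cd7, Cfp at 989 against 429 CPM and Bst2 at 610 against 582 CPM, but not the leading genes themselves. With C4 and C6, the clusters of Xcr1, the only gene shared was Mpeg1, a pore-forming protein, with C4, at 492 against 652 CPM. Cst3 was at 3631 CPM in C16 against 23976 CPM in C4 and 18214 CPM in C6.

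With C13, the cluster of Jchain, Gzma, Nkg7 and Cd3g, no signature gene reached that mark, and the most abundant in C16 was Txk, at 46.1 against 191 CPM. For 13 of the 56 own genes (23.2%) C13 was the highest other cluster, against 3.35% of the 1402 genes, among them Prdm16, Prr29, Foxs1, Fcer2a and Fcmr. The levels of the 13 in C13 ran from 0.37 CPM for Pigr and 8.89 CPM for Prdm16 to 192 CPM for Cd82 and 842 CPM for Ltb. Own genes were chosen to be lower in every other cluster, and for some of them few UMIs set which came highest. The 1402 genes are thus no matched background. Of the 387 C13 cells, 1 held UMIs of 32 of the 56. With C15, of S100a8 and S100a9, the highest was Lyz2 at 79.6 against 13652 CPM. With C19, of Hbb-bs and Car2, Car2 was at 136 CPM in C16 against 4405 CPM. With C11, of C1qa, it was Hmox1 at 83.2 against 388 CPM. With the cycling clusters C5, C7 and C10, the genes that reached the highest levels in C16 were Dut, Stmn1 and Hmgb2, at 42.5, 41.3 and 299 CPM against 249, 2226 and 4406 CPM. With C8, of Nr4a3, Cd83 was at 281 against 1418 CPM. With C12, of Il12b, Apol7c was at 445 against 3383 CPM. With C14, Pgam2 was at 184 against 150 CPM and Clec10a at 258 against 233 CPM. With C17 and C18, Irf8 was at 479 against 1840 CPM and Ppt1 at 126 against 1061 CPM. C9 and C17 held low UMI counts and a median of 14.1% and 15.4% mitochondrial UMIs, and Gm42418 was at 2985 CPM in C16 against 41899 CPM in C9.

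The profile over 5723 genes that reached 50 CPM in any cluster was nearest to C1, with a Pearson r of 0.863 on the scale of log2 (CPM + 5), followed by C3 (0.856), C5 (0.852), C0 (0.847) and C2 (0.843). C13 had 0.792 and C19, the lowest, 0.568. These values are across genes that share libraries and are not independent.

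UMIs of several lineage lists in the same cell were counted after each cell was thinned to 1000 UMIs. In 95.2% of C16 cells (89.9 to 98.2, Clopper-Pearson) UMIs of at least 3 of the 5 lists for cDC1, cDC2a, cDC2b, pDC and monocytes were found. This was not particular to C16, since the share was 99.2% in C14, 92.4% in C3, 80.2% in C0 and 47.8% in C13. A list was met by 1 UMI of any of its genes, and the monocyte list was met in 95.1% of C0 and 82.8% of C4 cells. The share therefore cannot tell whether a cell held several lineages. The share was 100% for C16 without thinning, as it nearly was for C0 (99.9%). At 1000 UMIs Cd7 was in 61.9% of C16 cells, against 37.0% in C10, the highest other cluster, 31.5% in C13, 28.7% in C0 and 1.03% in C4. A UMI of Cd3e was in 0 of the 126 cells and in 9.04% of C13 cells at that depth, and in 0 and 30.5% without thinning. The upper bound of 2.88% for C16 limits cells with a UMI, not cells that express the gene.

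C16 itself was not uniform. When its cells were grouped by their variable genes, 3 groups formed, which are named here by a leading gene. They are a description, since the same transcripts made them. The Ccr7+ group had 27 cells (10 WT and 17 Batf3-/-), the Clec10a+ group 40 cells (25 WT and 15 Batf3-/-), and the Bhmt+ group 59 cells (23 WT and 36 Batf3-/-). The Ccr7+ group kept its 27 cells at resolutions of 0.6 and 1.0, where 4 and 6 groups formed. The Bhmt+ group was split into 34 and 25 cells at 0.6 and into 25, 25 and 9 at 1.0, and the Clec10a+ group kept its 40 cells at 0.6 and was split into 22 and 18 at 1.0. The Clec10a+ group made up 43.1% of WT cells of C16 (30.2 to 56.8) and 22.1% of Batf3-/- cells (12.9 to 33.8), the Ccr7+ group 17.2% (8.59 to 29.4) and 25% (15.3 to 37.0), and the Bhmt+ group 39.7% (27 to 53.4) and 52.9% (40.4 to 65.2). These intervals overlapped for each group.

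Tcf7 followed the groups and Cd7 did so less. Tcf7 was at 445 CPM in 26 of 27 cells of the Ccr7+ group, with 476 CPM in WT and 426 CPM in Batf3-/-. It was at 26.0 CPM in 9 of 40 Clec10a+ cells and at 75 CPM in 25 of 59 Bhmt+ cells. So the level of Tcf7 was highest in the Ccr7+ group in both libraries. Cd7 was at 983, 774 and 1716 CPM in the Ccr7+, Clec10a+ and Bhmt+ groups, in all but 1 cell.

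**Figure D3:**
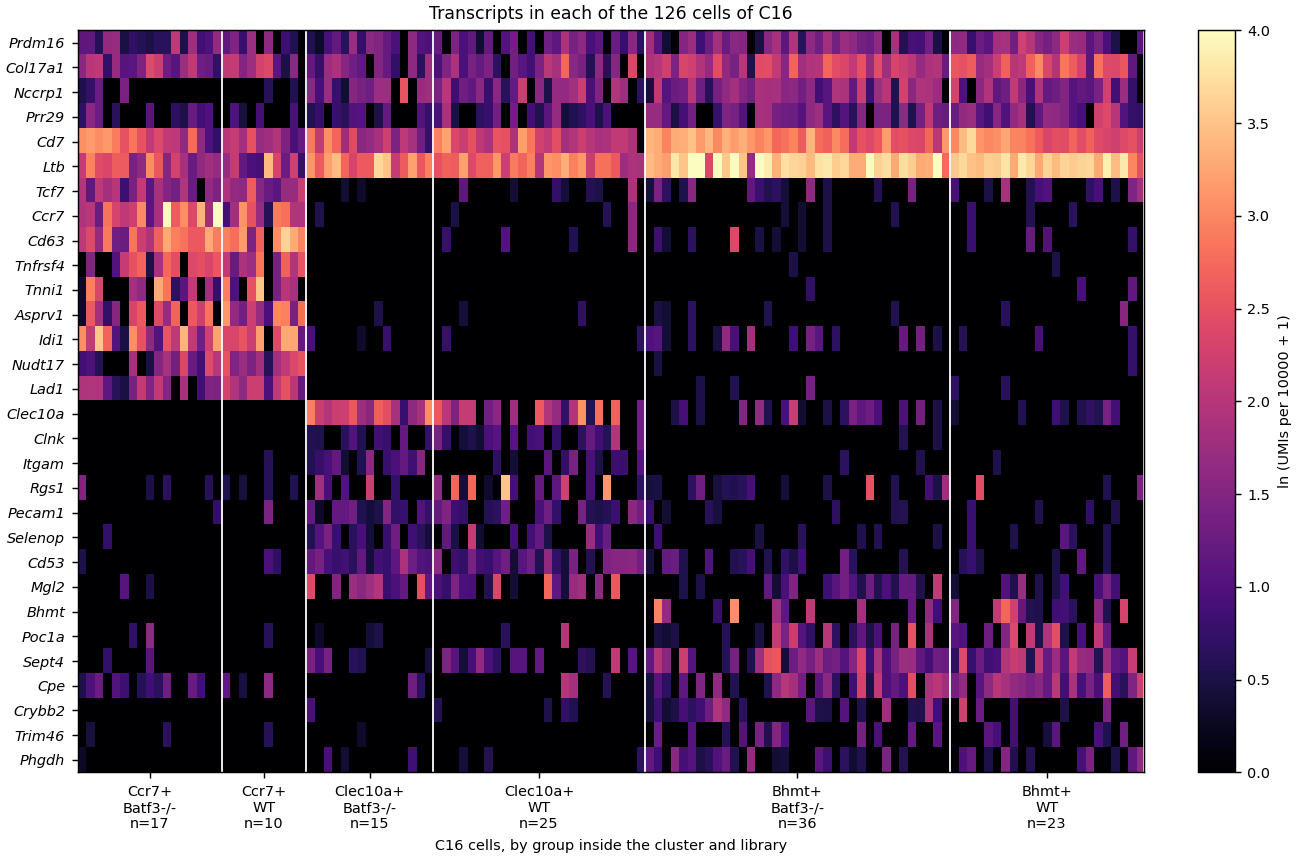
Transcripts of own genes, of Cd7, Ltb and Tcf7 and of the leading genes of the 3 groups (rows) in each of the 126 cells of C16 (columns), ordered by group and library, as natural log of UMIs per 10000 UMIs of the cell plus 1, with values past the top of the colour scale drawn at its top. Col17a1 and Cd7 run across the groups, while Tcf7 and Ccr7 are dense in the 27 cells of the Ccr7+ group and Clec10a in the 40 cells beside it.

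The 14 genes of the mature cDC list summed to 8802 CPM in the Ccr7+ group, against 763 CPM in the Clec10a+ and 2245 CPM in the Bhmt+ group. This was below C1 at 14519 CPM and C12 at 13372 CPM. Ccr7, which named the group, is on that list. The first genes given here led the group by their level over the other C16 cells, so their levels are a description. Ccr7, the receptor that guides dendritic cells to lymph nodes, was at 1226 CPM in 27 of 27 cells against 9.71 CPM in the other C16 cells. Cd63, a tetraspanin, was at 1421 against 26.1 CPM, Tnfrsf4, the receptor OX40, at 619 against 1.49 CPM, and Tnni1, a troponin, at 634 against 3.73 CPM. Of the 30 signature genes of C1, 23 were at 0.5 times the C1 level or more in this group (87.2% of all genes), with a median of 121% of the C1 level, and with C12 and C9 the counts were 14 and 13 (82.8% and 55.1% of all genes). The Clec10a+ and Bhmt+ groups had 0 and 2 genes of C1 (84.2% and 84.3% of all genes). Aire, the autoimmune regulator that drives tissue antigens in the thymus, was at 454 CPM, with UMIs in 19 of the 27 cells. Its level was 772 CPM over the 10 WT cells of the group and 270 CPM over its 17 Batf3-/- cells. Aire was at 0 UMIs in the Clec10a+ group and had UMIs in 5 cells of the Bhmt+ group. It was not particular to C16, being among the 13 signature genes of C9 counted above. Without thinning, Aire was found in 24 of the 126 C16 cells and in 12.2% of C12 cells, the highest other cluster. When cells were thinned to 1000 UMIs, it was in 7.14% of C16 cells (3.32 to 13.1) and 5.23% of C9 cells, then the highest other cluster.

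The Clec10a+ group held Clec10a in 33 of 40 cells at 668 CPM, against 62.7 CPM in the other C16 cells. Mgl2 was at 275 CPM, Itgam, the chain of CD11b, at 85.4 CPM against 3.53 CPM, and Clnk, an adaptor of immune receptor signalling, at 98.4 against 1.77 CPM. Itgax, the chain of CD11c, was at 464 CPM in 40 of 40 cells, against 60.1 CPM in the Ccr7+ group and 176 CPM in the Bhmt+ group. The group shared 10 signature genes with C0 and 5 with C2 (90.9% and 91.6% of all genes), which were Mgl2, Clec10a, Clec4a3, Selenop and Lst1 for C2.

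The Bhmt+ group was named by Bhmt, a methyltransferase of choline metabolism, at 217 CPM in 24 of 59 cells and at 0 UMIs elsewhere in C16. It had the highest level of the 3 groups for 36 of the 56 own genes (64.3%), against 40.9% of the 1402 genes that passed the minimums. The own genes were chosen on the pooled UMIs of C16, of which this group gave 47.9%, so the choice favours it. Sept4, a septin, was at 361 CPM against 66.6 CPM in the rest of C16, and Cpe at 304 against 60.8 CPM. Col17a1 reached 814 CPM in 58 of 59 cells and Ltb 3609.5 CPM in all 59. Its count with C0 was 12 and with C2 was 7 (87.7% and 87.3% of all genes).

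Many own genes were found across the groups. In each of the 3 groups, 25 of the 56 own genes were at least 2 times the highest other cluster, among them Prdm16, Col17a1, Fabp1, Epcam and Dbp. Prdm16 was at 189, 197 and 311 CPM in the Ccr7+, Clec10a+ and Bhmt+ groups, and Col17a1 at 454, 308 and 814 CPM. Most own genes were uneven between the groups all the same, Fabp1 and Gm15848 of these 25 among them, and 6 of the 56 had their highest and lowest group within 2-fold. Own genes were chosen on the pooled UMIs of these groups. Neither count was made over the 1402 genes that passed the minimums, so neither can be read as a trait of own genes. Tdh was at 469 CPM in the Ccr7+ group and at 1.86 CPM in the Clec10a+ group, Fabp1 at 547 against 29.7 CPM, and Gm15848 at 6.01 CPM, from 2 of 27 cells, in the Ccr7+ group against 256 CPM in the Bhmt+ group. Of the 25 leading own genes a C16 cell held UMIs of a median of 16, with a range of 4 to 25, while the median was 0 or 1 in each other cluster. In all, 118 of 126 C16 cells and 7 of the 24217 other cells held 8 or more. This gap was fixed by the choice of the 25 genes and is a description.

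**Figure D4:**
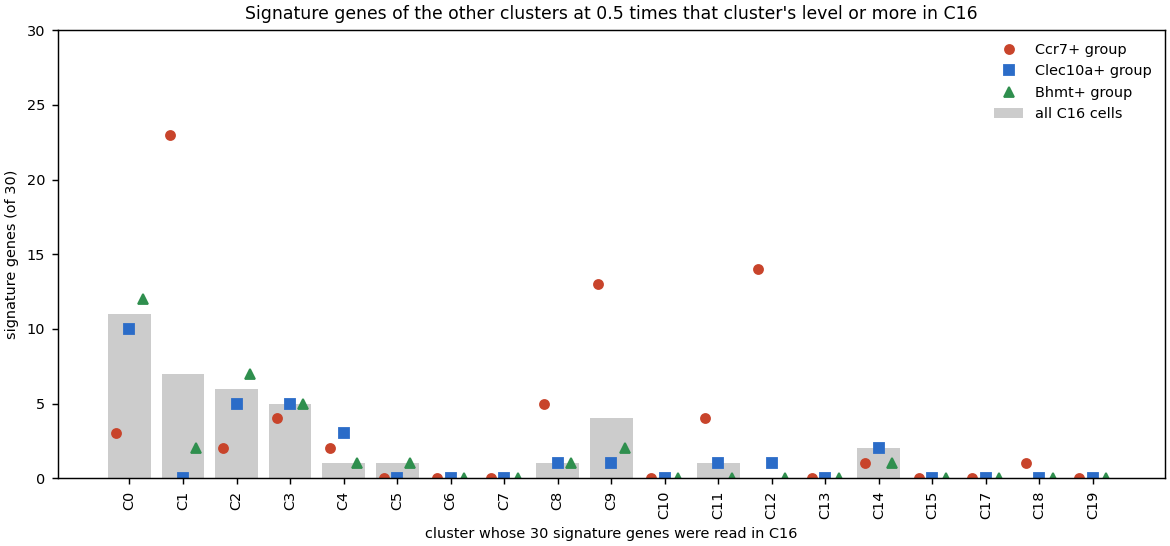
Number of the 30 signature genes of each other cluster (horizontal axis) that reached 0.5 times that cluster's level or more in all C16 cells (grey bars) and in the Ccr7+, Clec10a+ and Bhmt+ groups (points). The Ccr7+ group stands at 23 for C1, 14 for C12 and 13 for C9. The points of the other groups for C1 stand at 0 and 2.

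Antibody tags could be named for 5 of 11 rows, by the gene whose transcript each followed best over all cells, since the rows carried no names. The best r ran from 0.254 for CD11b to 0.662 for CD8a, and for CD11b and XCR1 the next gene followed almost as well (0.246 and 0.573), so these names are uncertain. C16 cells had a median of 431 tag counts, against 498 in other cells, and 1 cell had 36. By counts, the C16 median was below that of all other cells for CD4 (30 against 34), CD8a (37 against 44), CD11b (34 against 43) and CD172a (30 against 36), and above it for XCR1 (40 against 38). The authors reported a sizeable background for each antibody and zeroed counts under cut-offs, which was not done here. The lowest cluster median of CD8a was 35, in C19, so differences of a few counts cannot be read as surface protein. In the Clec10a+ group the CD11b median was 50, with quartiles of 34.8 and 73.8, against 35 in the Ccr7+ group and 28 in the Bhmt+ group. It was 47 in WT and 53 in Batf3-/- for the Clec10a+ group, above the other groups in both libraries, as was Itgam RNA. XCR1 was at 46.5 in WT and 39 in Batf3-/- cells of C16, against 131 in WT C4 cells.

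Most transcripts of C16 stood at similar levels in both libraries. Over 1400 genes at a mean of 100 CPM with 30 UMIs or more, 2 were at least 2-fold higher in Batf3-/- (0.143%) and 5 at least 2-fold lower (0.357%), with no test since there was 1 library per genotype. The log2 ratio, Batf3-/- over WT, had a median of 0.04 and lay between -0.40 and 0.41 for the middle 90% of genes. Batf3 was at 311 CPM in WT cells of C16 (272 to 354). The WT levels of C12 at 313 CPM (293 to 334), C9 at 301 CPM, C1 at 297 CPM and C6 at 288 CPM lay inside this interval. C4 was lower, at 238 CPM in WT. With Batf3-/- set at a floor of 3 UMIs the log2 ratio in C16 was -6.59, with an upper limit of -6.28 from the counts themselves.

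Among the lower genes were Tnip3, an inhibitor of NF-κB signalling, at 165 and 59.0 CPM (-1.48, -1.97 to -1.01), Emb, at 204 and 79.4 CPM (-1.36, -1.78 to -0.95), and Rgs1, a regulator of G protein signalling, at 218 and 91.2 CPM (-1.26, -1.65 to -0.87). A UMI of Rgs1 was in 20 of 58 WT cells and 25 of 68 Batf3-/- cells, so its lower level did not come with a lower share of cells. In the other cells of the 2 libraries Tnip3, Emb and Rgs1 had log2 ratios of 0.13, 0.36 and 0.16. Emb and Rgs1 were also leading genes of the Clec10a+ group, which was 43.1% of WT and 22.1% of Batf3-/- cells of C16, and within that group Emb was at 341 CPM in WT and 146 CPM in Batf3-/- and Rgs1 at 429 and 160 CPM. The higher genes were Ifitm3, at 63.6 and 152 CPM (1.26, 0.78 to 1.77), and Ifi27l2a, at 160 and 373 CPM (1.23, 0.92 to 1.54). In the other cells of the 2 libraries they had log2 ratios of 0.53 and 0.07. Both are known from interferon responses, and the cause of their higher level was not tested. The interferon list of 10 genes holds neither. Its summed level was 616 CPM in WT and 611 CPM in Batf3-/- in the Ccr7+ group. It was 344 and 242 CPM in the Clec10a+ group and 188 and 141 CPM in the Bhmt+ group. Next came Ccr7, at 162 and 323 CPM (0.99, 0.68 to 1.31), beside a share of the Ccr7+ group of 17.2% and 25%, and at 928 and 1398 CPM within that group, then Nucks1 (0.84) and Tcf4 (0.77). In the other cells Ccr7, Nucks1 and Tcf4 had 0.48, 0.12 and 0.60, so Ifitm3, Ccr7 and Tcf4 were also higher in Batf3-/- in the pool outside C16. The ratios in other cells pool all other clusters, whose mix differed between the libraries. C1 held 721 WT and 1845 Batf3-/- cells, C3 704 and 1541, and C4 2202 and 31. What part this mix had in those ratios was not tested. The intervals cover counting error only and not the variation between cells or animals.

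Of the 56 own genes, 55 passed these minimums, with a median log2 ratio of -0.01. Tnip3 alone was past 2-fold, and the others lay between -0.80 for Pisd and 0.71. Prdm16 and Col17a1 had log2 ratios of -0.11 and -0.20.

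**Figure D5:**
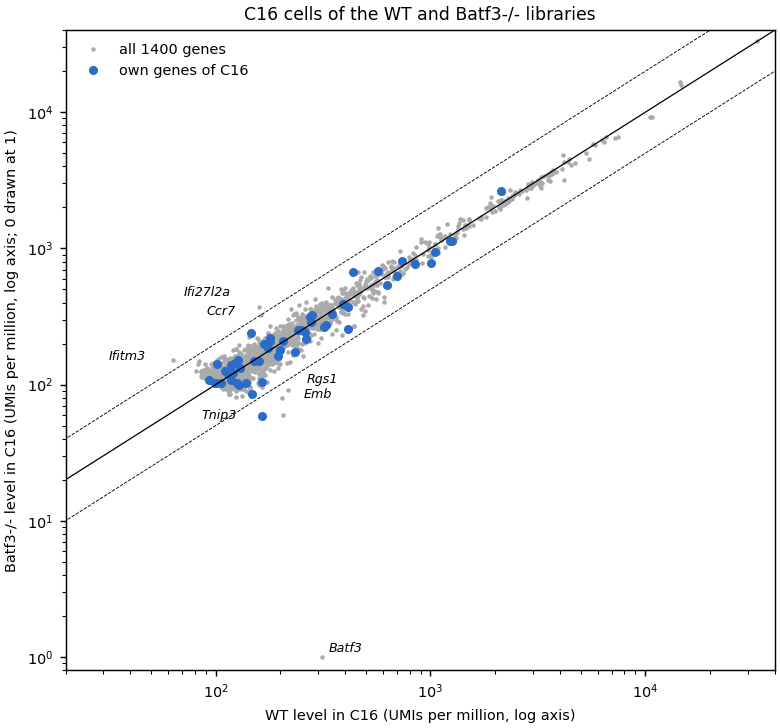
Level of each of the 1400 genes in C16 cells of the WT library (horizontal axis) and of the Batf3-/- library (vertical axis), in CPM on log axes, with own genes of C16 in blue, the line of equal levels and dashed lines at 2-fold. Batf3, at 0 in Batf3-/-, is drawn at 1, and 5 other named genes lie past the dashed lines.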

How the data were processed

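The authors sorted the cells, made 10x (v3) RNA and antibody tag libraries and deposited raw UMI counts, tag counts, natural log (ln) normalised RNA values, centred tag values, and a table of cells with clusters, a score per cell cycle phase and the mitochondrial and ribosomal fraction. The authors used bcl2fastq 2.2.0, Cell Ranger with GRCm38, which evened the depth between libraries, and Seurat 3.0.5. Cells were filtered on genes and on mitochondrial and ribosomal shares before deposit. The deposited ln RNA values were not used.

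From the counts of 17751 genes in 24343 cells, UMIs were summed by cluster and library and scaled to 1000000 (CPM), with exact Poisson or Clopper-Pearson 95% intervals, which cover counting error only. Total UMIs in C16 were 739388 in WT and 932176 in Batf3-/-. There was 1 library per genotype, so no test was made. List genes needed 10 CPM, and levels were not scaled by gene length. Own genes needed 100 CPM, 50 UMIs and 25 cells of C16. Signature genes were the 30 with the highest (CPM + 5) over the median of the remaining 18 clusters, at 50 CPM and 20 UMIs. For lineage lists in single cells, 28 WT and 42 Batf3-/- cells under 1000 UMIs were left out. Doublets were called by Scrublet in scanpy 1.11.5 at an expected rate of 0.1, chosen after a rate of 0.05 marked 0 Batf3-/- cells, and marked cells were kept except where stated. Groups inside C16 came from Leiden clustering of 1000 variable genes. The number of columns left unmapped was 0. The own-gene and ratio calculations were tested on simulated data.

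Named genes were Cd7, Tcf7 and Batf3, the 2 to 4 most abundant of each list, up to 25 own genes by ratio, up to 3 signature genes per cluster, and the 5 highest and 5 lowest genotype ratios. Defining markers, genes just inside and outside a threshold, genes of the 3 groups and others were chosen after their values were seen. The cluster and the lists were chosen with earlier results of these data known. Some genes that met these rules, and 1 list drawn up later, are not reported here.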

Additional observations from a re-analysis of the deposited data

How the results depend on the processing

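No paired analysis was possible because each genotype had 1 library and no comparison had a test. Among cells outside C4, C6, C12, C17 and C18 the share of C16 was 0.669% in WT and 0.60% in Batf3-/-, so WT was then the higher. C4, C12, C17 and C18 were nearly absent in Batf3-/-, but C6 held 797 WT and 727 Batf3-/- cells, and with C6 kept, a setting chosen after seeing the data, the shares were 0.613% in WT and 0.564% in Batf3-/-. The number of own genes was 87 at a ratio of 1.5 (all 56 among them), 100 at a minimum of 50 CPM, 27 at 200 CPM and 38 at a ratio of 3. Under the other settings it was 53 to 62, and with cells of WT or of Batf3-/- alone 58 and 55, of which 47 and 48 were among the 56. Without the Ccr7+ group, a setting chosen after seeing the data, it was 69, and without cells whose barcode was shared, also added later, 53. Signature genes at 0.5 times or more were 10.6% with Batf3-/- cells alone and 5.26% to 9.05% otherwise. Cells with at least 3 of the 5 lineage lists were 100% when thinned to 2000 UMIs or not thinned. As a share of a cell's tag counts, 2 named tags had a higher median in C16, against 1 by counts. The cause of these shifts was not tested, apart from the stricter or looser limits themselves. The ILC list was highest in C16 by the main scaling but not over the mean of cells, without mitochondrial and ribosomal genes or without doublets.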

Other observations

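Some barcodes called as dividing cells also held transcripts of C16. In C7, where all 1054 cells were called S or G2M, 4 cells held 8 or more of the 25 leading own genes of C16. No doublet was called among them, but the caller marked only 2.01% of all Batf3-/- cells. Their UMI totals were 12211, 14680, 21131 and 23918, against a median of 14016.5 in C7. Whether they were doublets with a C16 cell was not tested further. The fullest, from the Batf3-/- library, held 18 of the 25 and 47 of the 56 own genes, with 6 UMIs of Prdm16, 10 of Col17a1 and 30 of Cd7 beside 20 of Mki67 and 34 of Top2a, among 21131 UMIs. Of the 4, 1 was from WT and 3 were from Batf3-/-. Only 3 other cells outside C16 reached 8, which were 2 in C1 and 1 in C13, each from Batf3-/-.

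Fewer than 8 of the 25 leading own genes, 4 to 7, were found in 8 C16 cells, 7 of them from WT. Their UMI totals ran from 5105 to 12237, and 1 was marked as a doublet.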
